A study of Saccharomyces cerevisiae with 2 samples.

Results

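A set of 10 histone genes of budding yeast, called the histone genes below, was examined. The questions were where their transcripts end and how many 3' end reads each copy gave. The genes were HTA1 and HTA2 (histone H2A), HTB1 and HTB2 (H2B), HHT1 and HHT2 (H3), HHF1 and HHF2 (H4), HTZ1 (the H2A variant H2A.Z) and HHO1 (the linker histone). They were taken by standard name from the annotated open reading frames (ORFs), and all 10 were found among the 5798 ORFs listed. All 10 were also among the 4939 ORFs with at least 100 reads in each replicate, which served as the background. The cells were of 1 strain, JZY65, which carries a deletion of the RPB4 coding sequence (genotype Δrpb4), and were grown to log phase at 30 °C in YPD, a rich medium. RPB4 encodes a subunit of RNA polymerase II. Poly(A) positions were read with 3' READS, a sequencing method which reads the RNA up to its poly(A) tail, so that the end of a read is the end of a transcript. The 2 biological replicates formed 1 group. A parental strain was not analysed here, so none of the values measures what the deletion does.

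Histones package DNA into nucleosomes, and the core histones H2A, H2B, H3 and H4 enter each nucleosome in equal numbers. In budding yeast each core histone has a pair of genes, and these lie in divergent pairs, an H2A gene beside an H2B gene or an H3 gene beside an H4 gene, read away from a shared control region. Their mRNAs are made mainly as DNA is replicated. Animal histone mRNAs made in that phase end in a stem-loop without a poly(A) tail, whereas yeast histone mRNAs are polyadenylated, so a poly(A) method can read them.

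The 400 nt windows after the stop codons of all ORFs held 27375875 reads in replicate 1 and 24905701 in replicate 2. The histone genes took 2.21% and 1.95% of them. No read lay inside the RPB4 coding sequence in either replicate, and with 4486 and 4066 reads in its window this count of 0 allows up to 0.0669% and 0.0738%. Its window lies outside the deleted part and checks nothing. Reads were counted without molecular identifiers, so intervals and limits cover counting error only. With 2 values against 2, a two-sided exact permutation test cannot go below p = 0.333, so values are given per replicate and differences are set against the spread between replicates.

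The core genes lie in 4 divergent loci. HTA1 (YDR225W, chromosome IV, 915530 to 915928, plus strand) and HTB1 (YDR224C, 914317 to 914712, minus strand) have 817 nt between their starts. HTA2 (YBL003C, chromosome II, 235394 to 235792, minus strand) and HTB2 (YBL002W, 236492 to 236887, plus strand) have 699 nt. HHT1 (YBR010W, chromosome II, 256331 to 256741, plus strand) and HHF1 (YBR009C, 255373 to 255684, minus strand) have 646 nt. HHT2 (YNL031C, chromosome XIV, 575640 to 576050, minus strand) and HHF2 (YNL030W, 576727 to 577038, plus strand) have 676 nt. HTZ1 (YOL012C, chromosome XV, 303579 to 303983, minus strand) and HHO1 (YPL127C, chromosome XVI, 308828 to 309604, minus strand) stand alone. Coordinates are those of the files, and for all 10 genes they equal those of assembly R64. No histone window overlaps another listed feature on the same strand, as 23.8% of the background windows do.

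HHT2 was read far more than any other histone gene. It had 455441 window reads in replicate 1 and 351584 in replicate 2, and ranked 2nd and 1st among all ORFs. It held 75.2% and 72.3% of all histone reads. The other 9 genes together had 150170 and 134967 reads. A 3' READS read marks a transcript end whatever the transcript's length, so levels were not divided by length. Without molecular identifiers, several reads may come from the same end. Whether read numbers follow mRNA numbers was not tested. In a culture of mixed cell-cycle stages, fewer cells making histone mRNA and less mRNA per cell cannot be told apart.

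The copies of a core histone differed in reads by 5-fold or more in both replicates. For H2A, HTA1 had 30208 and 27873 reads and HTA2 had 863 and 919. HTA1 gave 97.0% ± 0.293 (SD, n = 2) of the H2A reads, 32.7-fold ± 3.30 as many as HTA2. With the reads inside the ORFs added, this was 15.5-fold and 18.9-fold in the replicates, an alternative chosen after seeing the data. HTB1 had 19522 and 20635 reads and HTB2 had 2475 and 2136. HTB1 gave 89.7% ± 1.32 of the H2B reads, 8.77-fold ± 1.25 as many as HTB2. The locus of HTA1 and HTB1 was thus the more read for both histones it encodes.

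The H3 and H4 loci did not show such a common order. HHT1 had 7982 and 8087 reads, and HHT2 gave 98.0% ± 0.372 (SD, n = 2) of the H3 reads, 50.3-fold ± 9.60 as many. HHF1 had 69414 and 57771 reads and HHF2 had 12083 and 10754. HHF1 gave 84.7% ± 0.613 of the H4 reads, 5.56-fold ± 0.264 as many as HHF2. So the more read H3 gene and the more read H4 gene lay in different loci. Every one of these differences between copies was larger than the spread between replicates. The Wilson 95% intervals of the shares were narrow, from 97.0 to 97.4% for HTA1 in replicate 1 and from 84.0 to 84.6% for HHF1 in replicate 2.

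Within a locus, the partners were also unequal in reads. HTA1 had 1.45-fold ± 0.139 (SD, n = 2) the reads of HTB1, and HTB2 had 2.60-fold ± 0.384 those of HTA2, or 1.29-fold and 1.47-fold in the replicates with the reads inside the ORFs added. HHF1 had 7.92-fold ± 1.10 the reads of HHT1, and HHT2 had 35.2-fold ± 3.54 those of HHF2. Summed over copies, H2A had 1135 and 1156 reads per 1000000 ORF window reads (RPM) and H2B had 804 and 914 RPM. H3 had 16928 and 14441 RPM and H4 had 2977 and 2751, a ratio of 5.47 ± 0.309. Without HHT2, the H3 reads were those of HHT1 alone, 292 and 325 RPM, below both H4 genes.

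HTZ1, the gene of a variant that marks nucleosomes near promoters, had 6208 and 5234 reads, fewer than HHT1 and more than HTB2. HHO1 had 1415 and 1558. HTA2, with 31.5 and 36.9 RPM, had the fewest window reads of the 10 histone genes. It was the 1 member below the background median of 1402 and 1366 reads in both replicates. The other 9 lay above it in both replicates, as 47.9% of the background did. With reads inside the ORF included, HTA2 had 1957 and 1475 reads and HHO1 1415 and 1569, so the lower of these genes differed between replicates.

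**Figure D1:**
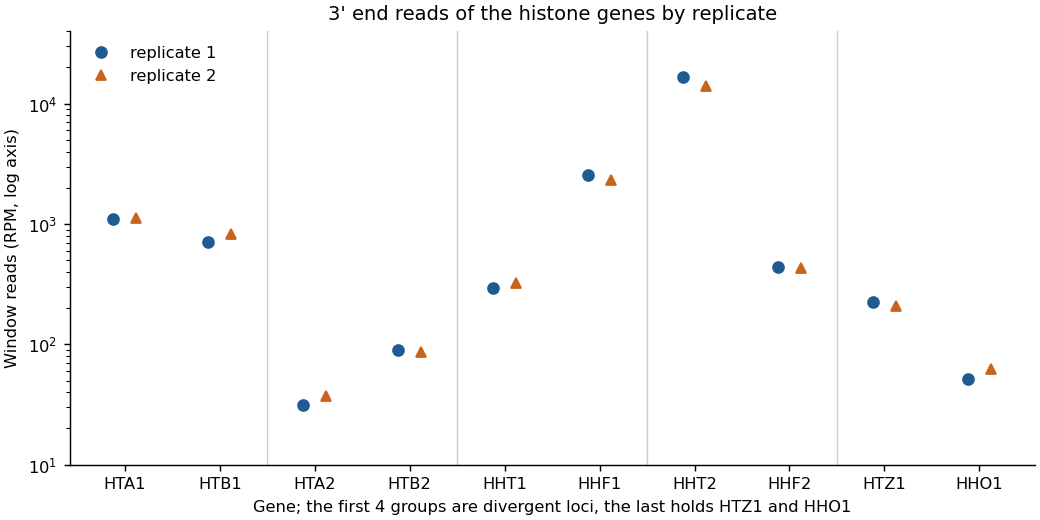
Window reads in RPM (log axis) of each histone gene, with circles for replicate 1 and triangles for replicate 2. HHT2 stands at 16637 and 14117 RPM and HTA2 at 31.5 and 36.9. Vertical lines separate the 4 divergent loci and the last group, HTZ1 and HHO1.

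The copies of H2A, H2B and H3 ended at different distances from the stop codon. The mean endpoint averages the distance from stop codon to poly(A) site over all window reads of a gene. It was 158.4 and 158.8 nt for HTA1 and 188.7 and 192.5 nt for HTA2. By its window reads, HTA2 therefore ended 32.0 nt ± 2.36 (SD, n = 2) further downstream. This leaves out the reads inside the ORF, which were 55.9% and 37.7% of the ORF and window reads of HTA2. HTA1 put 51.0% ± 1.15 of its reads on 159 nt and 20.4% ± 0.206 on 155 nt, and 82.1% ± 0.826 fell from 148 to 159 nt. HTA2 led at 179 nt with 26.8% ± 3.57, followed by 187 nt with 16.1% ± 1.91, and 69.7% ± 2.54 of its reads lay from 170 to 202 nt. The leading position of each H2A gene was the same in both replicates.

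HTB1 had the highest share of reads on 1 position of the core genes. It ended at 123.8 and 125.3 nt, with 61.9% ± 1.80 (SD, n = 2) of its reads on 127 nt and 19.0% ± 0.145 on the base before, 126 nt. HTB2 ended at 191.3 and 193.9 nt, 68.1 nt ± 0.763 beyond HTB1. Its reads fell into 3 main regions. From 83 to 93 nt it had 14.1% ± 1.08, from 183 to 206 nt 53.6% ± 6.07, and from 237 to 255 nt 17.2% ± 0.377. The leading position of HTB2, 192 nt, took 22.9% ± 0.130.

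The H3 genes differed most in position. HHT1 ended at 140.9 and 143.1 nt and HHT2 at 247.3 and 247.1 nt, a difference of 105.2 nt ± 1.74 (SD, n = 2). HHT2 put 98.7% ± 0.0488 of its reads from 226 to 262 nt, led by 250 nt with 37.7% ± 0.887 and 243 nt with 21.2% and 20.8% in the replicates. HHT1 had 62.0% ± 2.69 of its reads from 151 to 163 nt and 19.7% ± 1.60 from 100 to 116 nt. It had 0.938% ± 0.370 of its reads beyond 200 nt, where HHT2 had 99.7% ± 0.0221. The position shares of HHT1 and HHT2 overlapped by only 0.147% and 0.116%, against 86.7% between the replicates of HHT1 and 97.4% between those of HHT2.

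The H4 genes ended close together. The mean endpoint was 167.8 and 168.4 nt for HHF1 and 164.4 and 165.8 nt for HHF2, so HHF2 ended 2.94 nt ± 0.552 (SD, n = 2) upstream of HHF1. By the median position HHF2 lay 1 nt upstream in one replicate and 12 nt downstream in the other, a mean of 5.5 nt downstream, so the order of the H4 genes depends on the measure. HHF1 led at 164 nt with 51.5% ± 1.61 and had 25.1% ± 1.68 at 174 nt. HHF2 was led by 158 nt in replicate 1 and by 176 nt in replicate 2. Although their means lay close, the H4 copies seldom used the same bases after the stop codon, and their position shares overlapped by 5.95% and 4.73%. For H2A the overlap was 6.05% and 5.17%, and for H2B 1.52% and 0.827%. Between replicates of 1 gene the overlap ran from 68.1% for HTA2 to 97.4% for HHT2 over the 8 core genes.

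**Figure D2:**
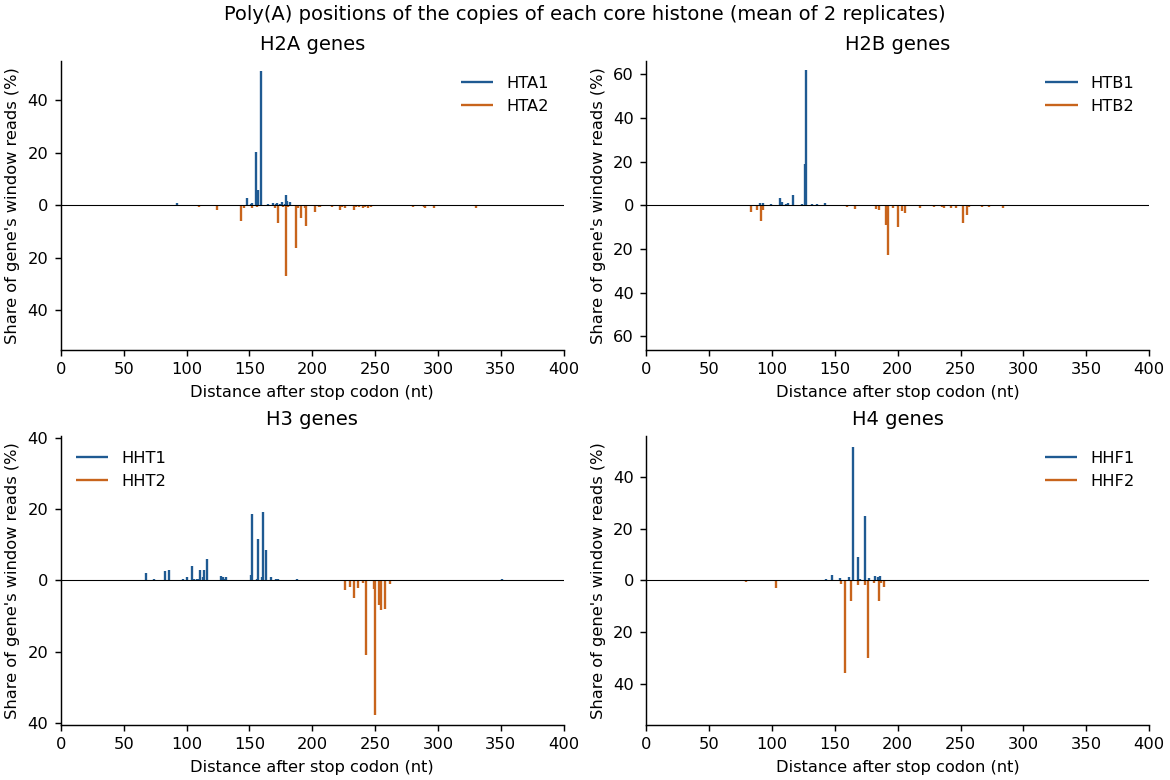
Share of a gene's window reads (%, mean of 2 replicates) at each distance after the stop codon (nt), with copy 1 drawn upward and copy 2 downward for H2A, H2B, H3 and H4. The main positions of HHT1, from 151 to 163 nt, and of HHT2, from 226 to 262 nt, do not meet, while those of HHF1 and HHF2 lie in the same stretch.

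All 10 mean endpoints lay beyond the background median of the same replicate, which stood at 122.3 and 123.6 nt, as 48.6% of the background ORFs did in both replicates. The median over the members was 166.6 nt against 122.8 nt over the background. HTB1, at 124.5 nt ± 1.06 (SD, n = 2), lay just beyond the background median. In rising order came HTB1, HHT1, HTA1, HTZ1, HHF2, HHF1, HTA2, HTB2, HHT2 and HHO1. HTA2 and HTB2, the partners of 1 locus, were the 1 pair of neighbours in this order whose replicate values overlapped. In the other loci the partners lay apart, HTA1 34.1 nt ± 0.776 beyond HTB1, and HHT2 82.1 nt ± 1.15 beyond HHF2, while the endpoint of HHT1 minus that of HHF1 was -26.1 nt ± 1.15. HTA1, HTZ1, HHF2 and HHF1 stood within 10 nt of one another, between 158.4 and 168.4 nt.

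**Figure D3:**
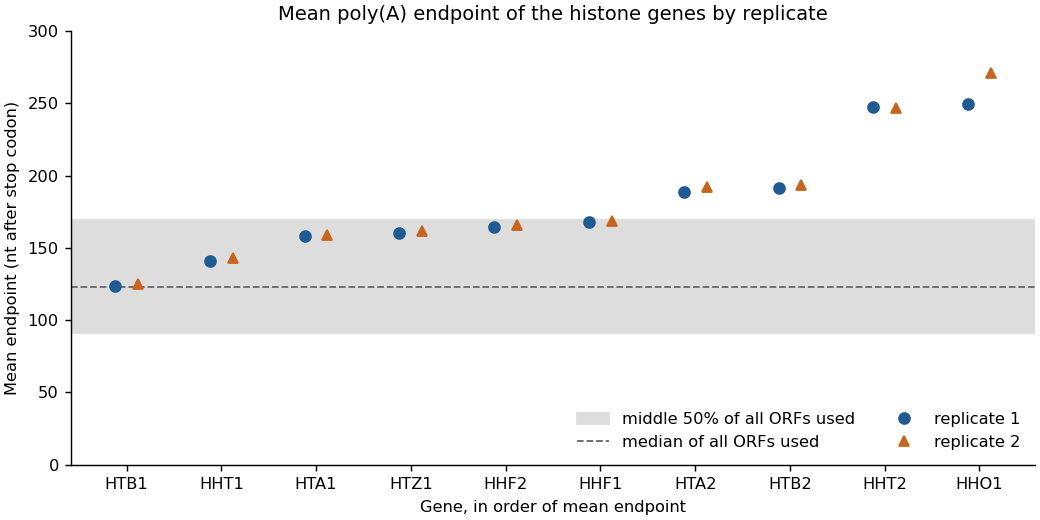
Mean endpoint (nt after the stop codon) of each histone gene in replicate 1 (circles) and replicate 2 (triangles), in order of the mean. The grey band spans the middle 50% of the 4939 background ORFs, 91.5 to 169.5 nt, and the dashed line marks their median of 122.8 nt. HTA2, HTB2, HHT2 and HHO1 lie above the band.

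The more read copy of each core histone had the lower effective number of positions. Sites were counted as the effective number of positions, which is the number of equally used positions that would have the same Shannon entropy. This number was 6.61 ± 0.430 (SD, n = 2) for HTA1 and 15.4 ± 0.122 for HTA2. It was 4.26 ± 0.191 for HTB1 and 22.4 and 17.7 in the replicates for HTB2. For H3 it was 7.53 ± 0.144 for HHT2 and 17.0 ± 1.79 for HHT1, and for H4 4.95 ± 0.0785 for HHF1 and 7.48 ± 0.148 for HHF2. In all 4 pairs the difference exceeded the spread between replicates. The order was also the same with positions under 1% of the reads left out, where HHF1 had 3.62 and HHF2 5.06. The plain count of positions with any read did not follow it. For H2A the count had the reverse order, with 83 and 70 for HTA1 and 43 and 39 for HTA2. It was 52 and 60 for HTB1 and 71 and 48 for HTB2. For H3 it was 70 and 68 for HHT2 and 81 and 80 for HHT1. For H4 it was 75 and 74 for HHF1 and 76 and 73 for HHF2. Rounding of the deposited values hides positions with few reads in HHT2 and, to a lesser degree, in HHF1. Their counts are therefore lower limits and cannot be compared with those of HHT1 and HHF2. Across the 4939 background ORFs, reads and effective number had a Spearman correlation of -0.00664 and 0.0312 in the 2 libraries. With positions under 1% left out, the correlation was -0.178 and -0.157. The 1% cut leaves out positions with few reads only in genes with many reads, so it depends on read number itself. The values after the cut therefore cannot show whether genes with more reads used fewer positions. The correlations are descriptions across genes that share a library.

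Against the background, where the median effective number was 8.46 and 8.43, HTA2, HTB2, HHT1 and HHO1 lay above in both replicates, 4 of 10 against 44.9% of the background. HTB2 exceeded 98.6% and 94.5% of the background ORFs. HTB1, HTA1 and HHF1 put over 50% of their reads on 1 position in both replicates, 3 of 10 genes against 16.4% of the background. HTA1 and HHF1 lay close to this threshold. The Wilson 95% interval included 50% for HTA1 in replicate 1 (49.7 to 50.8) and for HHF1 in replicate 2 (49.9 to 50.7). From the 10th to the 90th percentile of their reads, HHF1 spanned 10 nt in each replicate, HTB1 19 and 10 nt, HTB2 164 and 161 nt and HHO1 193 and 221 nt.

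**Figure D4:**
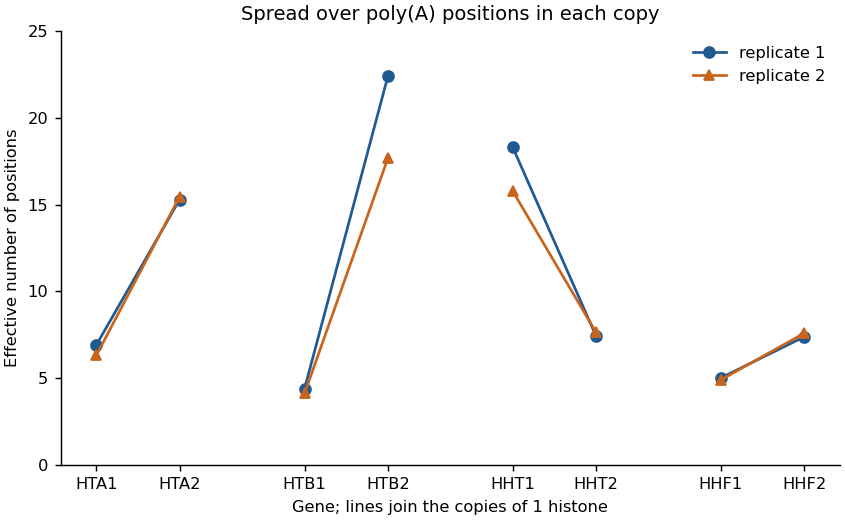
Effective number of poly(A) positions of each core histone gene, with lines joining the copies of 1 histone within replicate 1 (circles) and replicate 2 (triangles). The lower end of each line is HTA1, HTB1, HHT2 or HHF1, the more read copy.

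HTZ1 had a sharp 3' end close to that of HTA1. Its mean endpoint was 160.5 and 161.8 nt, its leading position 160 nt took 44.5% ± 3.44 (SD, n = 2) of the reads, and 154 nt took 31.7% ± 0.952. A further 12.6% ± 1.38 lay from 176 to 181 nt. The earth mover distance, the mean distance by which reads would have to be moved to turn 1 profile into the other, was 4.16 nt between HTZ1 and HTA1, the smallest of the 45 pairs of histone genes. It was 31.0 nt between HTZ1 and HTA2. The pooled position shares of HTZ1 and HTA1 overlapped by only 5.32%, less than those of HTZ1 and HHF2 with 11.7%.

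HHO1, of the linker histone that binds DNA outside the nucleosome core, had the most spread 3' ends and the largest difference between replicates. Its mean endpoint was 249.7 and 270.9 nt in the replicates, which had 1415 and 1558 reads. HHO1 was the 1 member that moved by over 10 nt, as 9.60% of the background did. Replicate 1 was led by 140 nt and replicate 2 by 330 nt. At 140 nt it had 13.8% (Wilson 95% interval 12.1 to 15.7) and 6.68% (5.54 to 8.02) of its reads. At 330 nt it had 9.96% (8.51 to 11.6) and 17.6% (15.8 to 19.6). These intervals do not overlap, so counting error alone is smaller than the change at either position. Joined at gaps of up to 10 nt, the positions with at least 1% of its pooled reads formed 8 clusters, of which 249 to 272 nt held 29.3% ± 2.62 (SD, n = 2) and 316 to 333 nt 25.2% ± 4.28. At gaps of up to 20 nt there were 4 clusters, and the first of these stretches became part of 232 to 290 nt, with 35.9% ± 2.46.

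HHO1 was also the 1 member with over 10% of its reads beyond 300 nt in both replicates, 31.9% and 40.1%, against 8.58% of the background. A cluster from 386 to 389 nt, at the edge of the window, held 7.53% ± 0.249 of its reads, and ends beyond 400 nt are outside the measurement. In positions 1 to 300 its mean endpoint was 213.5 nt.

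**Figure D5:**
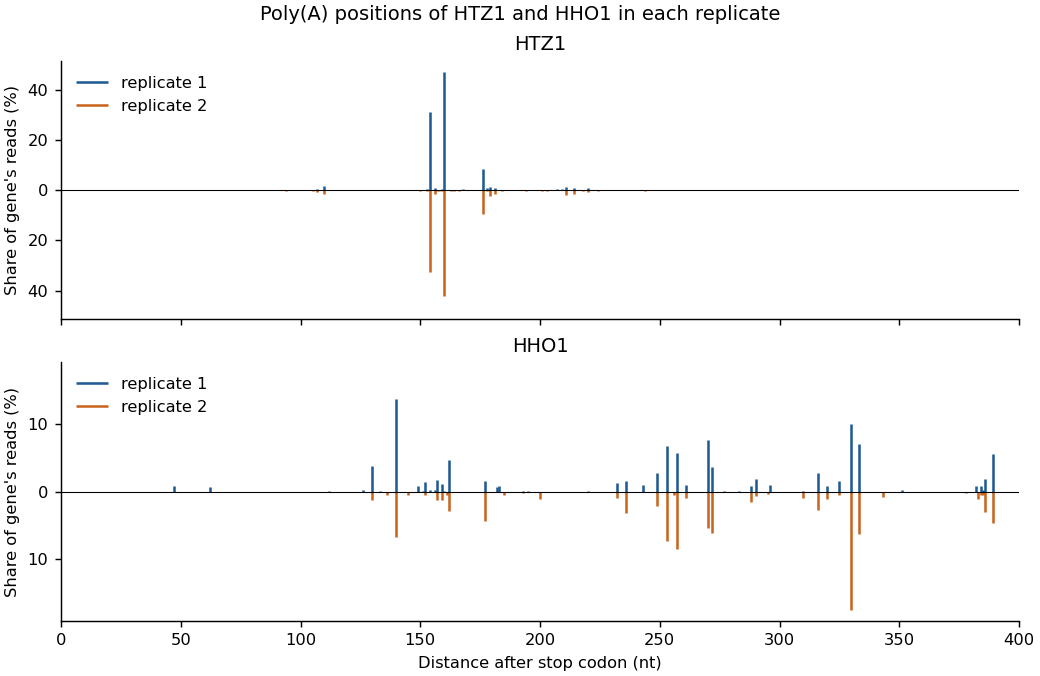
Share of the reads (%) of HTZ1 and HHO1 at each distance after the stop codon (nt), with replicate 1 drawn upward and replicate 2 downward. HTZ1 has the same leading positions in both replicates, 160 and 154 nt, while HHO1 is led by 140 nt in replicate 1 and by 330 nt in replicate 2.

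The leading position was the same in both replicates for 7 of the 10 genes, against 83.8% of the background. Besides HHO1, it differed for HHT1 and HHF2. HHT1 had 20.6% and 17.6% of its reads at 161 nt and 16.8% and 20.8% at 152 nt. HHF2 had 39.0% and 32.3% at 158 nt and 27.1% and 32.7% at 176 nt. In both genes the same pair of positions was used in each replicate, with a change in their balance. The median difference in mean endpoint between replicates was 1.45 nt over the members and 2.03 nt over the background. In 9 of 10 histone genes, all but HHT2, the endpoint lay further downstream in replicate 2, as it did in 59.1% of the background, whose median also rose from 122.3 to 123.6 nt.

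Reads inside the coding sequence were rare in the histone genes other than HTA2. HTA2 had 1094 reads inside the ORF at 27 positions in replicate 1 and 556 at 14 positions in replicate 2. These were 55.9% (Wilson 95% interval 53.7 to 58.1) and 37.7% (35.3 to 40.2) of its ORF and window reads, and the intervals do not overlap. HTA2 was the 1 member over 30% in both replicates, as were 4.09% of the background ORFs. HTB2 followed with 1.63% and 1.20%, and the median over the members was 0.302% and 0.280%, against 1.12% and 1.11% over the background.

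HTA1 had 117 and 38 reads inside the ORF, 0.386% and 0.136% of its reads. HTA1 and HTA2 encode nearly identical proteins, and the treatment of reads with several matches is not given in the sources here, so reads inside either ORF may belong to the other copy. Internal priming was not tested. In HHT2, 0 of 455441 reads lay inside the ORF in replicate 1, which allows a share of up to 0.000659%, and 5 of 351589 in replicate 2. HHO1 had 0 of 1415, which allows up to 0.212%, and 11 of 1569.

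The 3' ends of HHF2 reached into its neighbour. KTR5, a mannosyltransferase gene on the opposite strand that converges on HHF2, ends 166 nt away, and 44.1% and 53.3% of the HHF2 reads lay at 167 nt or beyond, inside the KTR5 coding sequence. The leading position of HHF2 in replicate 1, at 577196 on chromosome XIV, is short of it, and that in replicate 2, at 577214, is inside it. KTR5 itself had 190 and 126 window reads on its own strand, with a mean endpoint of 94.2 nt ± 2.22 (SD, n = 2).

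The other core genes mostly ended short of the next gene. HTA2 converges with UTP20, of ribosome biogenesis, at 276 nt, and had 6.49% and 4.57% of its reads past that distance. HTB2 converges with ECM15 at 265 nt and had 5.54% and 3.75% past it. HHT2 ended before SIW14, a phosphatase gene that converges at 288 nt, in all but 0.0226% and 0.0333% of its reads. HHT1 had 0% and 0.0495% of its reads past IPP1, of inorganic pyrophosphatase, which converges at 370 nt. After HHF1 and HTB1 the next annotated feature is a replication origin. ARS209 lies 2 nt after the HHF1 stop codon, so all HHF1 window reads lay past its start, and ARS428 lies 278 nt after HTB1, with 0% and 0.0436% of the HTB1 reads past that distance.

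The nearest profiles to those of the core histone genes, by earth mover distance over the pooled positions, were not those of the other copy. For HHF1 the other copy ranked 75th of 4938 other ORFs, at 8.67 nt, and for HHF2 28th. The nearest ORFs were EIS1 for HHF1 (3.27 nt) and URA10 for HHF2 (4.49 nt). HTA2 ranked 1016th for HTA1, whose nearest was ATO3 (3.78 nt), and HTA1 ranked 648th for HTA2, whose nearest was ERV29 (7.61 nt). HTB2 ranked 3870th for HTB1, nearest AME1 (2.32 nt), and HTB1 2145th for HTB2, nearest VAN1 (11.1 nt). HHT2 ranked 4535th for HHT1, nearest POA1 (5.92 nt), and HHT1 1751st for HHT2, nearest EAR1 (3.19 nt). The median distance to all other ORFs ran from 45.8 nt for HTB1 to 127.1 nt for HHT2. These are descriptions of position alone. With 4938 other ORFs compared, that some ORF lay nearer than the other copy says little about the copies.

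Genes that control histone genes were measured in the same way. The 12 listed were the activator genes SPT10 and SPT21, the HIR corepressor genes HIR1, HIR2, HIR3 and HPC2, the chaperone genes ASF1 and RTT106, YTA7, and the cell-cycle transcription factor genes SWI4, SWI6 and MBP1. SPT10 had 21 and 1 window reads and was not used. Of the other 11, 3 lay beyond the background median in both replicates, HIR3, HPC2 and SWI6, against 48.6% of the background. Their median endpoint was 96.4 nt, and they ran from HIR2 (48.1 nt ± 0.236, SD, n = 2) to HIR3 (180.0 nt ± 1.01), with a same-strand feature inside its window.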

How the data were processed

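Total RNA from 2 cultures of 1 strain was read by 3' READS. The submitters' processing notes name Bowtie. Its version, the genome build and the treatment of reads with several matches are not given in the sources here. The deposited signal values are, per the file headers, the reads inside each ORF, in the window from 1 to 400 nt after it and at its most used position. The values show that they are reads times 1 factor per library (0.858 and 0.940). Percent values, per the file headers, relate reads inside the ORF or at the most used position to the reads of the same gene. Reads at each position are deposited relative to the most used one, set to 100.

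Division by the factor gave whole reads. Where the most used position had no more than 2000 reads, 99.998% and 99.995% of position values came out whole (tolerance 0.1), as did 99.97% and 99.86% of window totals. For deeper genes such as HHT2, rounding in the files hides positions with few reads. There was 1 group, so count models had nothing to compare. Pooled profiles are the sum of both replicates, and window reads in the deposited pooled table equalled that sum for all 10 genes. Clusters join positions with at least 1% of the pooled reads at gaps of up to 10 nt. Intervals are Wilson 95%, and for a share of 0 the upper limit is 3 counts. All 10 members were named, with the nearest ORF to each core gene, 12 regulators and neighbours. The members and lists were chosen with earlier results of these data known. The endpoint was tested on simulated reads with known shifts. The effective number was checked only on made profiles with a known number of equally used positions, and not at different read depths. Alternatives were other windows, the median position, the pooled table, reads inside the ORF, other cluster gaps, another read minimum and leaving out each replicate. Python 3.11.15, numpy 2.4.6, pandas 2.3.3 and scipy 1.17.1 were used.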

Additional observations from a re-analysis of the deposited data

How the results depend on the processing

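No paired analysis was possible because there was 1 group, so no groups could be paired by replicate number. Differences between copies were taken within each replicate. By the median position in place of the mean, the H2A difference was 24 nt (32.0 nt by the mean), the H2B difference 65 nt (68.1 nt), the H3 difference 98 nt (105.2 nt), and the H4 difference turned from -2.94 to 5.5 nt. The cause was not tested. In positions 1 to 300 the H2B difference was 67.0 nt. With reads inside the ORF added, HTA1 gave 94.5% of the H2A reads in place of 97.0%, since HTA2 had many such reads, and the fold of HTA1 over HTA2 fell from 32.7 to 17.2 and that of HTB2 over HTA2 from 2.60 to 1.38. The other 11 of 16 alternatives for the endpoint differences and 11 of 12 for the shares moved by less than the spread between replicates. Leaving out 1 of 2 replicates always moves a mean by less than their SD, so these alternatives could not have moved further. They gave ranges of 30.3 to 33.7 nt for H2A, 67.5 to 68.6 nt for H2B, 104.0 to 106.5 nt for H3 and -3.33 to -2.55 nt for H4. The count of 10 genes beyond the median stayed at 10 with a minimum of 10 reads and in positions 1 to 300. Leaving out a replicate could not lower this count, because a gene had to lie beyond the median in both replicates. Effective numbers were lower in all 10 genes without positions under 1% and by the inverse Simpson index, an alternative added after seeing the data. Neither alternative can give a higher number, so this direction was fixed in advance. The order within each pair held under both. With a gap of 20 nt, 5 of 10 cluster counts changed by over 1.5 times, HHO1 from 8 to 4. HTA2, with 863 and 919 window reads, and HHO1, with 1415 and 1558, had the fewest window reads and so the widest counting error.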
